A study of Hydra vulgaris with 32 samples.

Results

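The 28 loci described here, of 25879 in the study, lost at least 1 of their sequences after hydroxyurea and after heat shock. The summed signal of each locus stayed near the control level, over the 206 of their 415 sequences with normalized signal. A locus is a group of assembled sequences that share a locus number in the authors' identifiers, for example loc17451. From the 7408 loci with 2 or more sequences in the deposited normalized table, the members were chosen by their signal on day 11. Their summed signal had to be 0.75 to 1.33 times that of the day 11 controls both on day 11 of hydroxyurea and after heat shock. At least 1 of their sequences had to have a control mean of 130 or more and to fall to 0.25 times that mean or less after both treatments. Such sequences, 33 in all, are called falling sequences below. The sequence of each locus with the largest gain in the same libraries is called its partner. Heat shock library B was left out of the choice. Since the day 11 hydroxyurea and heat shock libraries chose the members, their values are given as a description without a test.

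The libraries held polyA RNA from central body columns, without apical and basal ends, of Hydra vulgaris of the thermosensitive strain Sf-1, which all groups share. All animals were starved from the start of the experiment. Untreated controls were sampled on days 4, 5 and 7 with 3 libraries each and on day 11 with 4 libraries. The days are those of the sample characteristics, and the titles of the control and hydroxyurea samples carry numbers lower by 1. Hydroxyurea animals received 10 mM hydroxyurea in 3 periods of 24 h with pauses of 12 h between them, and were sampled on days 4, 5, 7 and 11 with 3 libraries each. Heat shock animals were held at 28 °C for 62 h and colchicine animals received 0.4% colchicine for 8 h. For both the labels give 9 days since the start and 11 days of starvation, and there were 4 and 3 libraries. The labels do not say whether libraries of a group came from separate cultures, so p-values measure the spread between these libraries, which may be technical.

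A Hydra polyp is built from epithelial cells of 2 layers, which divide continuously in the body column, and from an interstitial lineage. Interstitial stem cells cycle faster and give rise to nerve cells, nematocytes, gland cells and germ cells. Hydroxyurea blocks ribonucleotide reductase and so kills cells in DNA synthesis, colchicine blocks microtubule assembly, and in Sf-1 animals warmth removes interstitial cells. Several transcripts of a locus can differ in splicing, in their start or end, or by allele, and in an assembly they can also be pieces of a single transcript. The identifiers matched 0 of 28925 genes of the reference table, so no member has a gene name or a known role here, and no sequence is printed.

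The choice kept few of the loci with a falling sequence. Of 25879 loci, 14792 had sequences in the normalized table, 7408 of them 2 or more, and only these could meet the limits. By the same limits 683 loci held a falling sequence, and 446 of these had 2 or more sequences in that table. In 405 of the 446 the locus sum lay below the range after both treatments. Among the members the lowest ratio of a sum was 0.782 at loc23941 and the highest 1.30 at loc16636. The nearest loci outside the range were loc23789 with 0.722 and loc25727 with 1.60. The lowest control signal of a falling sequence was 130.7 at loc20432 and the highest ratio of a fall 0.249 at loc03417. The nearest sequences of loci with a sum in range that missed those limits had 126.5 and 0.256.

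A constant sum did not always mean that the loss had been made up. In the day 11 controls the falling sequences held a median of 13.5% of the counts of their locus, from 0.776% at loc24473 to 67.6% at loc00471. They held over 25% in 9 loci and 25% or less in 19, by shares of CPM in the day 11 controls, libraries that the choice used. The choice itself used the signal, in which loc21676, at 24.99% here, had 832.8 of 3301.7 in its falling sequence, over 25%. In the controls of days 4, 5 and 7 they held over 25% in 7 loci. In those 19 loci the loss of the falling sequences alone could not have taken the CPM sum below 0.75 of the control. For those 19, except loc21676 by its signal, a sum within the range is therefore no sign of a gain elsewhere in the locus. Whether another sequence rose is given by its own test below. Among the 19, the partner did rise on 1 or more of days 4, 5 and 7 at loc19723, loc21676, loc22643, loc23941, loc24875 and loc25801. At loc00471 and loc03417, which are among the 9, sequence usage was called on none of these days. Shares here are shares of counts, which also depend on sequence length.

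**Figure D1:**
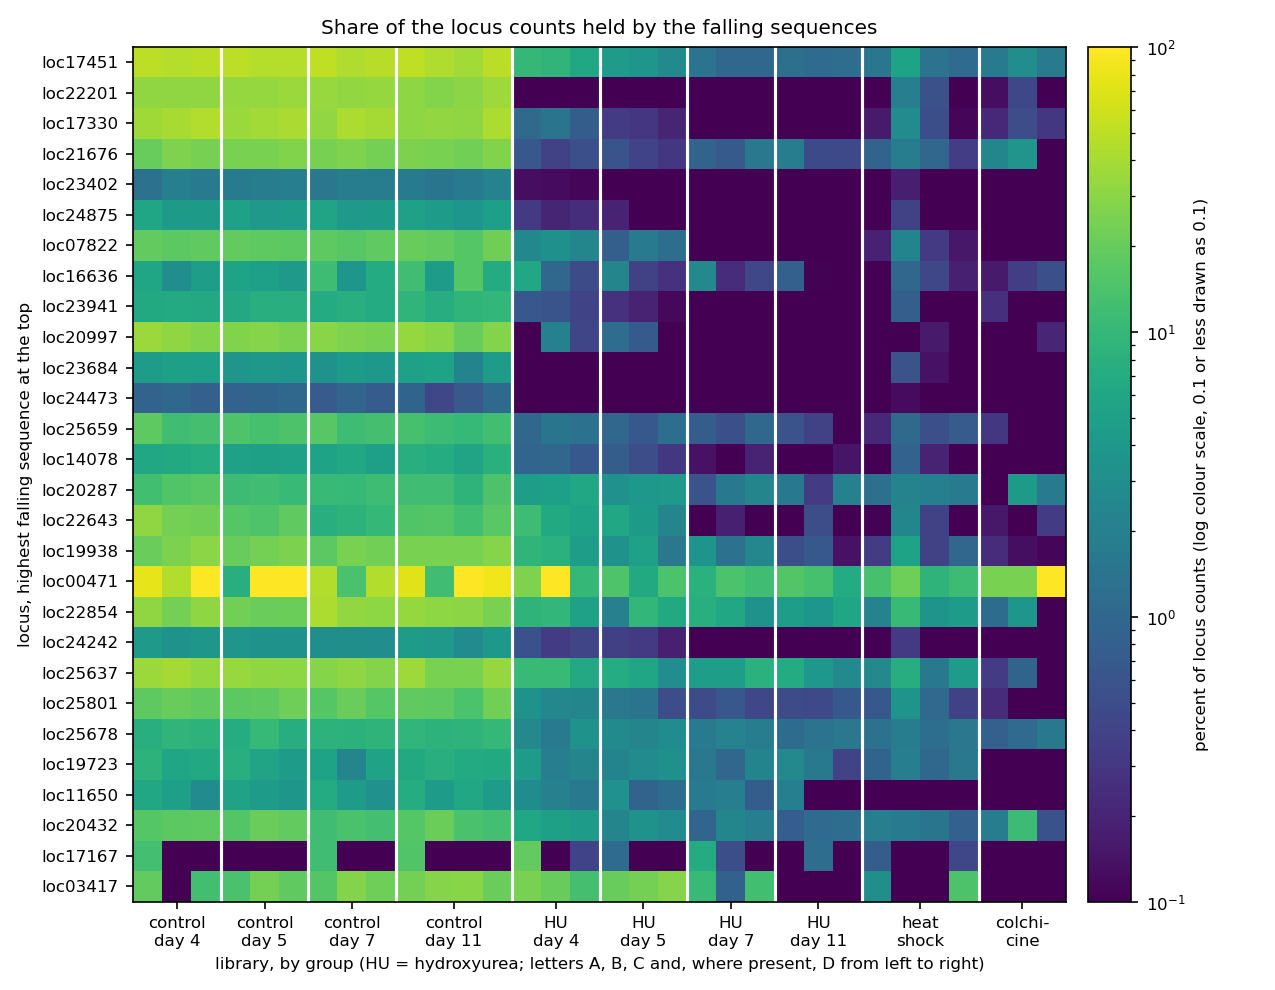
Share of the locus counts held by the falling sequences in 28 loci (rows, from the highest to the lowest falling sequence in the controls of days 4, 5 and 7) and 32 libraries (columns), in percent on a log colour scale. The median share of the 28 loci was 15.2% in the 9 controls of days 4, 5 and 7, against 2.58% on day 4, 1.08% on day 5 and 0.920% on day 7 of hydroxyurea, while loc00471, loc17167 and loc03417 differ between libraries of a group.

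Library totals lay between 13.1 and 36.6 M counts, and only colchicine B (15.2 M) and C (13.1 M) were below 23.6 M. The colchicine libraries also differed in the loci described here: the median ratio of a locus sum to the controls of days 4, 5 and 7 was 0.845 in A, 1.16 in B and 1.24 in C. Counts of calls after colchicine are therefore given with all 3 libraries and with A alone, where the other groups supply the estimate of the spread and the lone library is assumed to vary like them. Values below are CPM, counts divided by the library total in M, with totals scaled by TMM (trimmed mean of M values). Tests are edgeR's quasi-likelihood test on all sequences or loci, with Benjamini-Hochberg adjustment and a call at an adjusted p under 0.05. Shares of all sequences or loci called are given for this fit alone. Counts of calls from other fits have no such background beside them.

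In libraries that played no part in the choice, most falling sequences were already low on day 4 of hydroxyurea, and their median was lower later. Of the 33, 24 fell on day 4 (5.9% of all tested sequences were called lower), 25 on day 5 (7.41%) and 27 on day 7 (9%) against the controls of the same day. The 24 fell on all 3 days, and 3 more fell on day 7 and not on day 4. No falling sequence was called higher on any of these days by edgeR, 0 had an unadjusted p under 0.05 in that direction, and DESeq2 called 1 higher, on day 5. The falling sequence with the highest control level of each of the 28 loci was at a median of 14.7% of the same-day control on day 4, 8.80% on day 5 (27 loci, since that of loc17167 was at 0 in the day 5 controls) and 3.56% on day 7. The median over all sequences tested was 97.2%, 97.7% and 98.2%. Such sequences were under 5% of the control in 7 loci on day 4, 10 on day 5 and 16 on day 7. The highest on day 4 were those of loc03417 (268%), loc17167 (193%) and loc16636 (78.5%). Those of loc19723 and loc21676 were not lower on day 7 (43.7% and 3.64%) than on day 4 (41.1% and 1.85%). In RNA of whole body columns, fewer cells of a type and less RNA per cell cannot be told apart.

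The untreated animals were compared with each other in the same way. Between control days 4 and 7, edgeR called 0 of 33 falling sequences (0.0337% of all sequences were called), 1 had an unadjusted p under 0.05, and DESeq2 called 0. The median log2 difference, day 7 minus day 4, was -0.22 for these 33 and -0.017 for all sequences, a difference that was not tested. Of the sums edgeR called 0 (0.105%), with 2 at an unadjusted p under 0.05. Across the 9 controls of days 4, 5 and 7 the highest library was under 2 times the lowest for the falling sequence of 20 of 28 loci. Within a control group, averaged over the 3 days, the SD was a median of 11.6% of the mean for the falling sequence, 9.60% for the partner and 6.24% for the locus sum.

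The locus with the highest falling sequence in the controls, loc17451, also had the largest drop of the falling share on day 4, by 40.0 percentage points. Its main falling sequence seq48742_loc17451_tr0252656 was at 102, 116 and 116 CPM in the day 4 controls and at 15.8, 16.8 and 10.1 CPM on day 4 of hydroxyurea. It was at 5.23, 4.75 and 3.63 CPM on day 5, against 104, 119.8 and 106 CPM in the controls, and had 0 counts in all 3 libraries of day 7, against 90.4, 96.4 and 100.3 CPM. Treated and control libraries did not overlap on any day. The fitted log2 difference was -2.97 (SE 0.75, adjusted p = 0.0125) on day 4 by edgeR. On day 7 the level was at least 897-fold lower, taking 3 counts per library as the floor. This and the bounds below read a deposited 0 as an observed count, although the counts may be rounded estimates. The call on day 4 was lost without hydroxyurea library A or C, with log2 differences of -3.02 and -2.74. All 4 falling sequences of this locus fell on each of the 3 days.

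The partner of loc17451, seq48752_loc17451_tr0645631, was higher in each hydroxyurea library than in each control of its day. It was at 116, 154 and 140.2 CPM in the day 7 controls and at 203, 237 and 235 CPM after hydroxyurea, a log2 difference of 0.72 (SE 0.17, adjusted p = 0.00438) by edgeR. On days 4 and 5 it was at 225, 212 and 227 CPM and 213, 221 and 228 CPM, against 143, 169.6 and 151 CPM and 139, 174 and 156 CPM, without a call (log2 0.52 and 0.50, adjusted p = 0.0647 and 0.0664). The locus sum on day 7 was at 206, 239.7 and 238 CPM against 242, 277 and 267 CPM, a log2 difference of -0.16 (95% interval -0.50 to 0.17, adjusted p = 0.559). On that day the rest of the locus gained 71.9% of what the falling sequences lost.

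In loc22201 the falling sequence was at 0 counts on days 4 and 7 of hydroxyurea. seq65754_loc22201_vl0009131 was at 37.5, 37.1 and 34.7 CPM in the day 4 controls and 37.6, 35.7 and 37.7 CPM in the day 7 controls, and at least 329-fold and 347-fold lower after treatment. On day 5 it had 0, 0 and 0.0324 CPM, the last being 1 count. Its partner seq65756_loc22201_tr0617076 was at 42.9, 52.0 and 49.5 CPM on day 7 against 25.9, 36.9 and 34.7 CPM, and was not called (log2 0.57, adjusted p = 0.0967). Another sequence of the locus, seq65755_loc22201_tr0617065, rose on day 7 from a mean of 35.8 to 54.7 CPM (log2 0.61, adjusted p = 0.0492 by edgeR), while the small seq65753_loc22201_vl0009130 fell on all 3 days, from a mean of 3.49 to 0.0092 CPM on day 7 (1 count in 1 library). The locus sum stood at 105, 105 and 102 CPM on day 7 against 108, 109 and 111 CPM.

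In loc17330 both falling sequences were at 0 counts on day 7 and the partner rose. The main falling sequence, seq48258_loc17330_tr0149633, was at 23.8, 31.2 and 30.7 CPM in the day 4 controls and had 0 counts in all 9 hydroxyurea libraries of days 4, 5 and 7, at least 258-fold, 297-fold and 330.2-fold lower. The partner seq48259_loc17330_vl0102142 was at 78.9, 72.4 and 74.8 CPM in the day 7 controls and 128, 119.7 and 136 CPM after hydroxyurea, a log2 difference of 0.76 (SE 0.24, adjusted p = 0.0357) by edgeR. This call was lost when any 1 of the 6 libraries was left out, with values of 0.76 to 0.85. The locus sum on day 7 was 131, 123 and 139 CPM against 119.8, 129 and 126 CPM. In the day 11 controls the partner was at 102, 94.5, 97.1 and 79.6 CPM.

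The largest gain of a partner among those called on day 4 was at loc21676. Its falling sequence seq63798_loc21676_tr0433712 went from 23.3, 31.0 and 26.1 CPM in the day 4 controls to 0.613, 0.318 and 0.555 CPM (log2 -5.72, SE 0.60, adjusted p = 2.79e-07 by edgeR). Its partner seq63797_loc21676_vl0000695 was at 12.8, 15.9 and 14.9 CPM in the controls and 29.7, 49.0 and 68.6 CPM on day 4, and was at 79.2, 73.6 and 61.4 CPM on day 7 against 31.1, 23.5 and 27.6 CPM. It rose on days 4, 5 and 7, with log2 differences of 1.76, 1.56 and 1.38 (adjusted p = 7.15e-05, 2.11e-04 and 4.77e-04 by edgeR). The most abundant control sequence of this locus, seq63796_loc21676_tr0653967, fell on the same days, from 72.9 to 43.4 CPM on day 4, and by the group means the partner, at 49.1 CPM, was then the highest sequence of the locus. The locus sum was not called on any of the 3 days.

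Partners of loc20997 and loc24875 also rose on all 3 days. The falling sequence seq61333_loc20997_vl0140103 was at 19.8, 18.5 and 15.6 CPM in the day 4 controls and 0, 1.09 and 0.208 CPM after hydroxyurea, and at 0 counts in all day 7 hydroxyurea libraries. The partner seq61329_loc20997_tr0577407 was at 18.2, 19.1 and 17.5 CPM and 23.9, 26.7 and 23.6 CPM, a smaller step of log2 0.44 (SE 0.13, adjusted p = 0.0404) by edgeR. That day 4 call was lost when any 1 of the 6 libraries was left out (log2 0.43 to 0.50), and the day 7 call without control A or hydroxyurea C (log2 0.40 and 0.46). The day 7 call of the loc24875 partner was lost without control A or hydroxyurea B (log2 0.65 and 0.68). In loc24875, with 62 sequences in the count table, seq75801_loc24875_vl0051487 went from 32.3, 28.0 and 27.5 CPM to 1.44, 1.04 and 1.18 CPM on day 4. Its partner seq75821_loc24875_vl0037918 went from 24.2, 30.3 and 25.5 CPM to 48.2, 56.9 and 53.6 CPM (log2 0.99, SE 0.20, adjusted p = 0.00184 by edgeR). The partner of loc24875 covered little of the locus: 2 larger sequences, seq75811_loc24875_tr0643787 and seq75812_loc24875_tr0643790, fell on all 3 days, from 160.8 to 99.1 CPM on day 4 for the second.

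**Figure D2:**
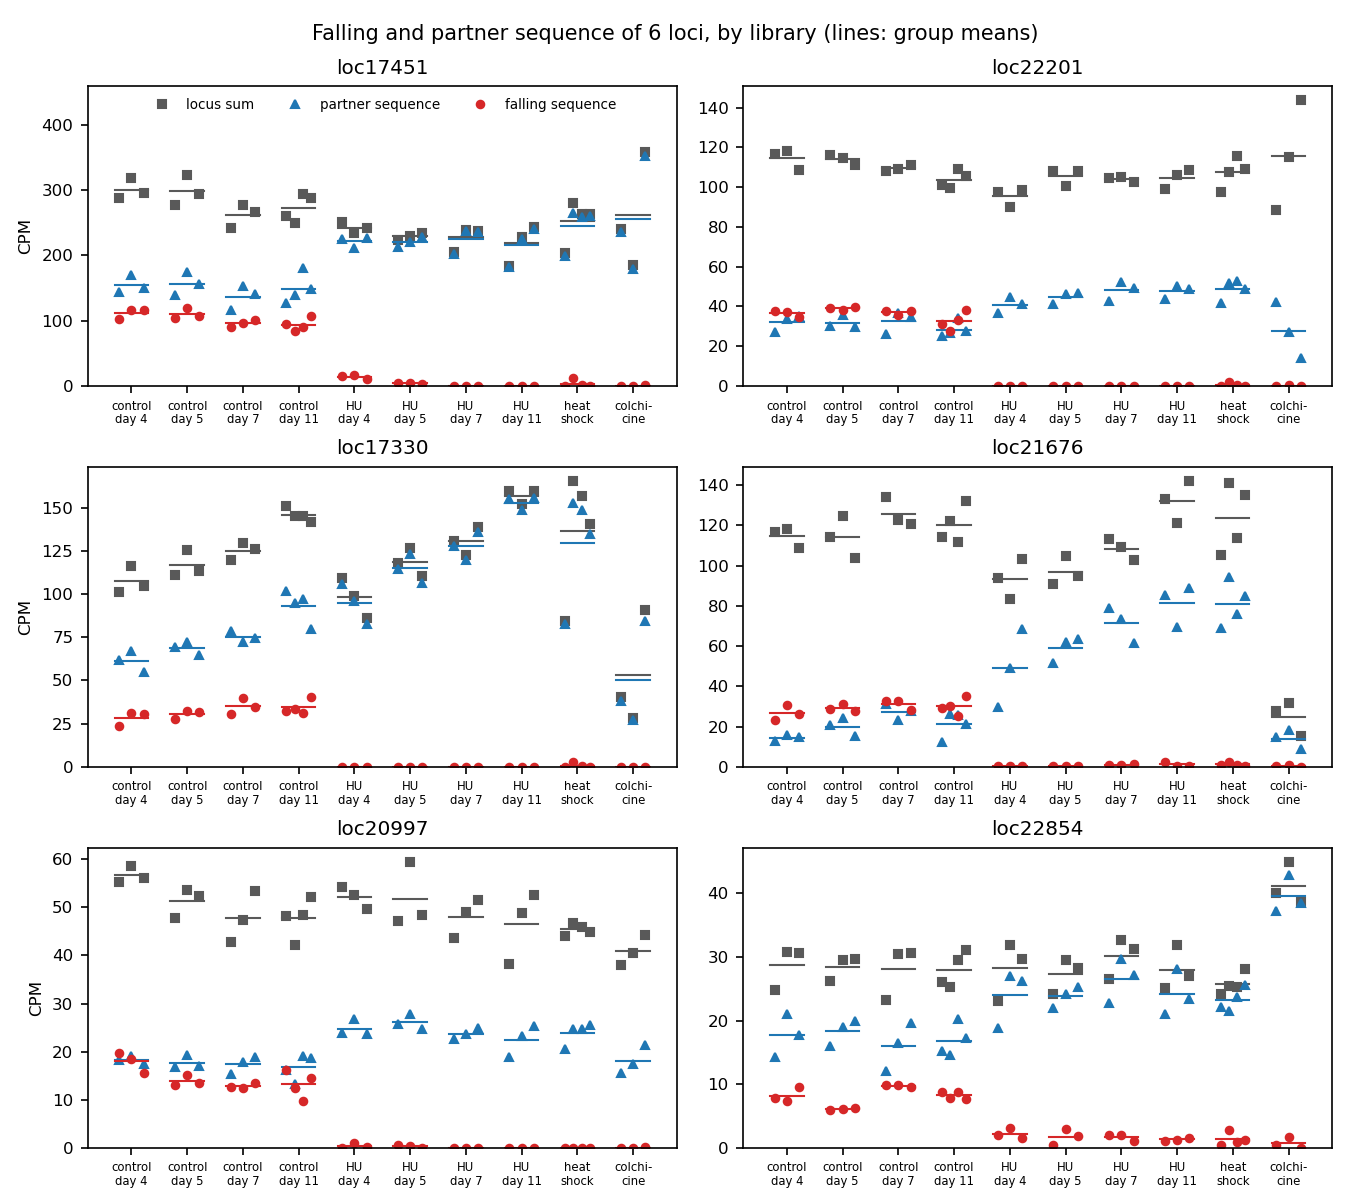
CPM per library in 10 groups for the falling sequence (red circles), the partner (blue triangles) and the sum of all sequences (grey squares) of 6 loci, with group means as lines. At loc21676 the partner was at 29.7 to 68.6 CPM on day 4 of hydroxyurea and 12.8 to 15.9 CPM in the day 4 controls. After colchicine the falling sequence and the sum of this locus were low, while its partner was not called against the controls.

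Over all 28 loci, partners rose in 3 loci on day 4 (2.65% of all sequences were called higher), 4 on day 5 (3.77%) and 9 on day 7 (5.07%). The median partner was at 119% of its control on day 4, 129% on day 5 and 125% on day 7. A falling sequence fell and the partner rose in the same locus in 3, 4 and 8 loci: loc20997, loc21676 and loc24875 on every day, loc23941 on day 5, and loc17330, loc17451, loc22643, loc22854 and loc25801 on day 7. At loc19723 the partner rose on day 7 without a call of the falling sequence. With the compared groups alone in the fit 7, 9 and 13 partners rose, and by DESeq2 7, 7 and 11. The shares of all sequences called in these fits are not given, so the larger counts are no result about the partners.

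At loc22854 the falling sequence seq68153_loc22854_vl0062385 was at 2.09, 1.98 and 1.08 CPM on day 7 against 9.90, 9.85 and 9.57 CPM, and the partner seq68152_loc22854_vl0062383 at 22.7, 29.7 and 27.2 CPM against 12.1, 16.5 and 19.7 CPM (log2 0.72, SE 0.17, adjusted p = 0.0042 by edgeR). At loc25801 the partner was at 16.5, 18.7 and 18.9 CPM against 9.24, 11.7 and 11.2 CPM (log2 0.75, SE 0.17, adjusted p = 0.00274 by edgeR). At loc22643 the falling sequence was at 17.9, 12.3 and 12.2 CPM in the day 4 controls and 3.57, 3.83 and 4.23 CPM in the day 7 controls, without a call between those days. It was at 5.86, 3.36 and 2.70 CPM on day 4 and 0, 0.0808 and 0 CPM on day 7 of hydroxyurea.

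At loc23402 and loc24473 a minor sequence fell beside an abundant partner. At loc23402 the partner seq70228_loc23402_tr0208332 stood at 1409, 1298 and 1363 CPM in the day 7 controls and 1417, 1249 and 1462 CPM after hydroxyurea. The falling sequence seq70245_loc23402_vl0032049, which held 1.75% of the locus counts in the controls of days 4, 5 and 7, went from 24.4, 27.7 and 28.0 CPM to 0, 0.0404 and 0 CPM. At loc24473 the falling sequence seq74164_loc24473_vl0110178 held 0.889% and went from 10.9, 11.1 and 12.3 CPM to 0 counts in all day 5 libraries, at least 111-fold lower. Here the groups did not overlap for the falling sequence, while the partner of neither locus was called on any of the 3 days. At loc23684 the falling sequence went from 13.6, 17.8 and 17.0 CPM to 0.153, 0.318 and 0.173 CPM on day 4 in a locus of 296 to 348 CPM. Its partner was minor too, with a median of 13.1 CPM over the 9 controls, and was not called on day 7 by edgeR (log2 0.59, adjusted p = 0.063), but was by DESeq2, with the replicate block and with the compared groups alone (log2 0.60 to 0.61).

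Falling sequences of loc07822 and loc23941 were lower in the hydroxyurea libraries of each later day. At loc07822 seq18156_loc07822_vl0091441 was at 3.25, 5.36 and 3.40 CPM on day 4, 1.27, 2.44 and 1.82 CPM on day 5 and 0.110, 0 and 0 CPM on day 7, and the 9 controls of these days ranged from 20.7 to 28.0 CPM. At loc23941 seq72228_loc23941_vl0012008 was at 1.75, 1.77 and 1.21 CPM, 0.722, 0.547 and 0.292 CPM and 0.0275, 0.0808 and 0.194 CPM, against 14.9 to 18.2 CPM in the controls. The partner of loc23941 was at 160.0, 199 and 167 CPM on day 5 against 125, 119.5 and 122 CPM (log2 0.52, SE 0.15, adjusted p = 0.0261 by edgeR), a call lost without any 1 of the day 5 controls or hydroxyurea B, with values of 0.49 to 0.56.

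The difference between days 7 and 4 was tested itself for all 33 falling sequences. The effect of hydroxyurea was larger on day 7 for 4 of them (1.17% of all sequences were called in that direction): seq48742_loc17451_tr0252656, seq70245_loc23402_vl0032049, seq18156_loc07822_vl0091441 and seq48256_loc17330_tr0149636, the smaller falling sequence of loc17330. DESeq2 and a fit of the compared groups alone each called 11. Usage differed between the days in 5 loci (1.18%). The other 29 were not called, and among them seq65754_loc22201_vl0009131 and seq48258_loc17330_tr0149633 were at 0 counts in all libraries of both days.

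Sums of the loci stayed close to the controls in the same libraries, as they had on day 11. On day 4, 3 of 28 sums were called (18.2% of all loci were), with loc16636 and loc03417 higher and loc20287 lower. Without control B or control C of day 4 only 1 was called. On day 5, 2 were called (21.8%), loc16636 and loc17167, both higher. Without control C, hydroxyurea B or hydroxyurea C of day 5 only 1 was called. On day 7, 2 were called (25.7%), loc16636 higher and loc24875 lower. Leaving out any 1 of the 6 libraries of day 7 left 1 or 0. The fit of the compared groups alone called 11 sums on day 7, 6 higher and 5 lower. The 95% interval of the sum lay within 2-fold of the control in 27, 28 and 28 loci, against 55.2%, 53.6% and 51.8% of all loci tested, many of which have lower counts and so wider intervals. Sums on day 11 had been part of the choice of these loci.

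Gains outside the falling sequences were measured directly. On day 7 the rest of the locus, all sequences but the falling ones, was higher than in the day 7 controls in 19 of 28 loci, without a test. Of the 22 loci with a falling sequence called lower on that day, the rest was higher in 13, and in 10 its gain was at least 50% of the loss. Over the 22 the median was 39.8%, from -387% at loc24875 to 732% at loc24242, where the gain was far larger than the loss. At loc22201 it was 85.5% and at loc24875 the rest was lower by 105.2 CPM. The highest locus by gain was loc16636, whose rest was higher by 109.9 CPM.

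At loc16636 the sum rose on each day, with log2 differences of 0.46 (95% interval 0.21 to 0.71, adjusted p = 0.00762), 0.51 (95% interval 0.26 to 0.77, adjusted p = 0.00258) and 0.36 (95% interval 0.11 to 0.61, adjusted p = 0.0288) by edgeR. The day 7 call was lost without control A or B or without hydroxyurea B or C, with values of 0.31 to 0.39. Its falling sequence seq45790_loc16636_tr0650997 was not called on any of the 3 days, and hydroxyurea library A stood apart from B and C. It was at 32.2, 4.81 and 2.53 CPM on day 4, 12.7, 1.89 and 1.43 CPM on day 5 and 10.9, 1.09 and 2.01 CPM on day 7, each in the order A, B and C. The controls ranged from 11.6 to 38.8 CPM.

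The make-up of the locus counts was tested by edgeR's comparison of sequences within a locus (diffSpliceDGE). Sequence usage differed in 16 of 28 loci on day 4 (3.6% of all loci tested), 18 on day 5 (4.49%) and 23 on day 7 (5.38%), and the 16 were called on all 3 days. The lowest adjusted p on day 7 was 6.61e-30 at loc17451. Usage of loc00471, loc03417, loc11650, loc17167 and loc25678 was called on none of the days. Between control days 4 and 7, 0 loci were called (0.0924% of all loci were) and 1 had an unadjusted p under 0.05.

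Other sequences of these loci, neither falling nor partner, were tested in 142 of 145 cases. On day 4, 12 fell and 1 rose, on day 5 13 and 4, and on day 7 10 and 4. The lower calls were 8.45%, 9.15% and 7.04% of the 142, near the 5.9%, 7.41% and 9% of all sequences, and the higher calls 0.704%, 2.82% and 2.82%, against 2.65%, 3.77% and 5.07%. Of them, 7 fell on all 3 days by edgeR, in 6 loci, which is 4.93% against 4.52% of all sequences. The shares called lower are near the background and are no result about these loci. The 7 include seq18158_loc07822_tr0311689, at a mean of 4.79 CPM in the day 4 controls and 0.68 CPM on day 4 of hydroxyurea, and seq79499_loc25801_tr0398101, at 3.16 and 0.45 CPM.

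Colchicine, which the choice did not use, also lowered the falling sequences. It was compared with the 9 controls of days 4, 5 and 7, since the day 11 controls, which match it in starvation, had chosen the members. Colchicine animals were thus starved longer than these controls, which cannot be told apart from the treatment in this comparison. Of 33 falling sequences 31 fell (22.2% of all sequences were called lower), and those of 28 loci were at a median of 0.706% of the controls, where the median of all sequences was 82.5%. Partners rose in 13 loci (14.4%) and fell in 1, loc23941. Usage differed in 24 loci (32.3%). With A alone 29 falling sequences fell, without those of loc16636 and loc03417, and usage again differed in 24 loci. All 24 falling sequences that fell on the 3 days of hydroxyurea also fell after colchicine. The 2 not called with all 3 libraries were those of loc00471 and loc17167.

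Sums after colchicine went both ways. Of 28 sums, 20 were called (50.4% of all loci were), 12 higher (22.8%) and 8 lower (27.6%), and 23 intervals lay within 2-fold. With colchicine A alone 12 were called, 2 higher and 10 lower. Of the 12 higher calls, 2 were kept in A alone, 7 had a positive value and no call, 2 had a negative value and no call, and loc14078 was called lower (log2 -0.36, against 0.27 with all 3 libraries). A fit with 1 treated library also makes fewer calls by its design. Called in the same direction with A alone were loc19938 and loc22854, both higher, and loc17330, loc21676, loc23941, loc20997, loc20432 and loc03417, all lower. The partners called with A alone were 10 higher and 2 lower. The median log2 difference of all sequences was -0.21 after colchicine, -0.12 with median-of-ratios size factors, and the 12 higher sums remained 12 with that scaling, with 7 lower. The lower call lost with that scaling was loc20997 (log2 -0.20). Its call was also lost by DESeq2 (log2 -0.21), with the compared groups alone (log2 -0.26) and against the day 11 controls (log2 -0.14). Leaving out colchicine A, control B of day 5 or control C of day 7 lost it too (log2 -0.17, -0.24 and -0.22). Against the day 11 controls, which match colchicine in starvation but chose the members, 10 sums were called higher and 6 lower.

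The sum of loc21676 fell most. It was at 27.7, 31.6 and 15.5 CPM after colchicine against 104 at the lowest, 118 at the median and 134 at the highest of 9 controls, a log2 difference of -2.16 (95% interval -2.45 to -1.88, adjusted p = 6.38e-13) by edgeR. The groups did not overlap. The falling sequence was at 0.657, 1.16 and 0 CPM, and the partner, which hydroxyurea had raised, at 14.7, 18.1 and 9.02 CPM (log2 -0.51, adjusted p = 0.0812). Against the hydroxyurea libraries of days 4, 5 and 7 the partner was lower, with a log2 difference of -2.08 (SE 0.25, adjusted p = 4.96e-07) by edgeR.

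The sums of loc23941 and loc17330 fell as well. At loc23941 the sum was at 108, 84.4 and 94.3 CPM against 215 at the lowest, 236 at the median and 262 at the highest of the controls (log2 -1.21, 95% interval -1.40 to -1.02, adjusted p = 1.26e-11 by edgeR), and the partner at 53.7, 39.8 and 38.5 CPM fell with it (log2 -1.50, SE 0.14, adjusted p = 2.75e-09). At loc17330 the sum was at 40.2, 28.4 and 90.7 CPM against 101 at the lowest, 116 at the median and 129 at the highest (log2 -1.03, 95% interval -1.48 to -0.57, adjusted p = 3.31e-04 by edgeR), and library C was the highest of the 3.

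Sums that rose were led by loc19938, at 47.8, 56.3 and 83.1 CPM against 28.6 at the lowest, 37.0 at the median and 44.3 at the highest of the controls (log2 0.89, 95% interval 0.62 to 1.16, adjusted p = 1.79e-06 by edgeR). At loc22854 the sum was at 40.0, 44.9 and 38.7 CPM against 23.3 to 30.8 CPM (log2 0.62, 95% interval 0.40 to 0.84, adjusted p = 1.76e-05 by edgeR), with the partner at 37.2, 42.9 and 38.5 CPM. At loc07822 the falling sequence had 0 counts in all 3 colchicine libraries, at least 129-fold lower, and the partner rose to 197, 260.1 and 278 CPM (log2 1.01, SE 0.12, adjusted p = 1.05e-07). Its sum (log2 0.64) was not called with A alone (log2 0.19).

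**Figure D3:**
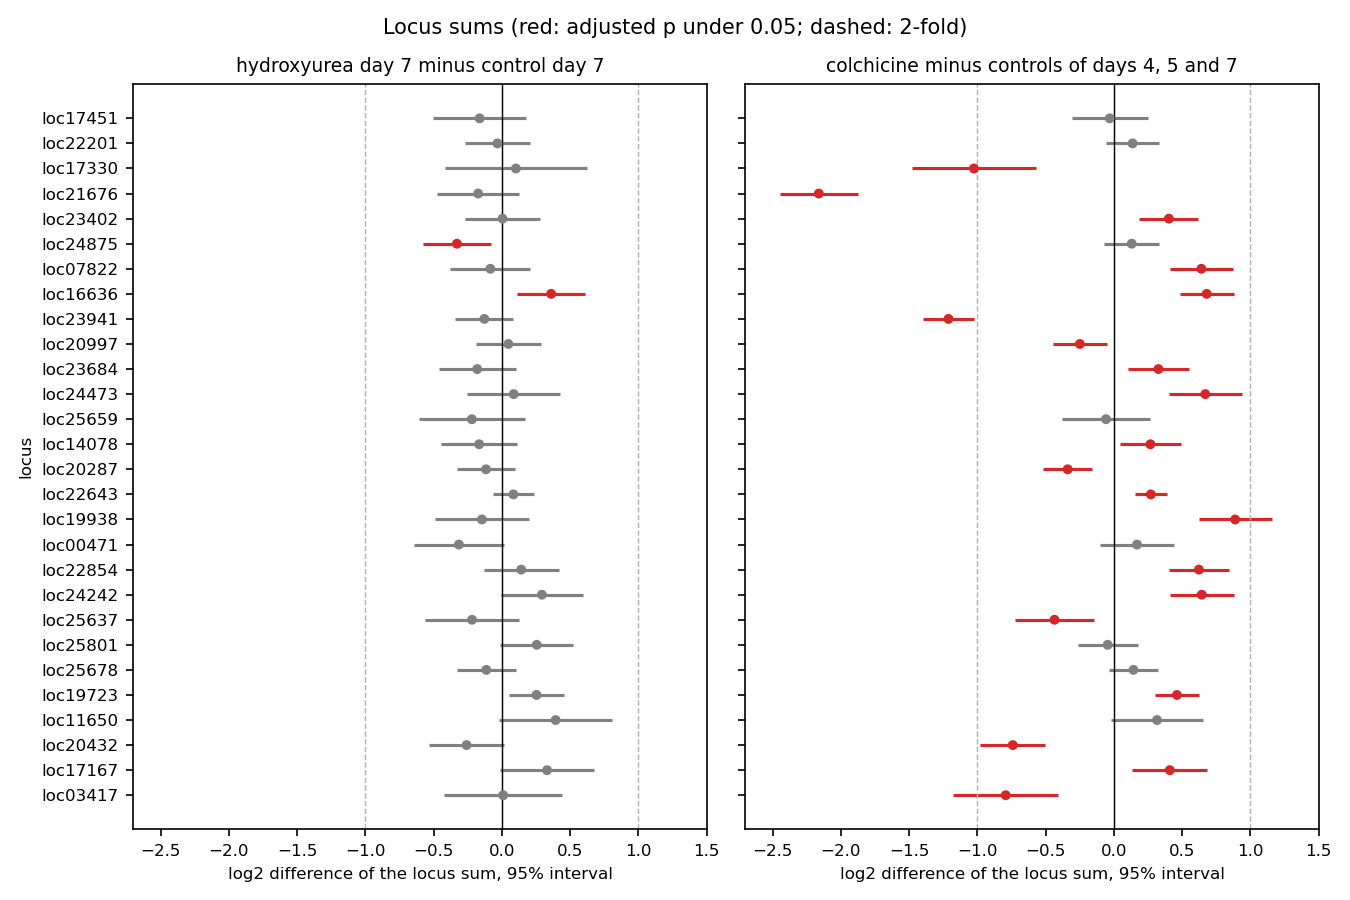
Log2 difference of the summed counts of 28 loci with its 95% interval, on day 7 of hydroxyurea against the day 7 controls (left) and after colchicine against the 9 controls of days 4, 5 and 7 (right), red where the adjusted p was under 0.05. On day 7, 2 sums were called and all 28 intervals lay within 2-fold, and after colchicine 20 were called with loc21676 lowest at -2.16.

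Compared directly with the hydroxyurea libraries of days 4, 5 and 7, colchicine sums were higher in 14 loci (19%) and lower in 6 (19.6%), where 38.6% of all loci were called. With colchicine A alone 2 sums were higher and 6 lower, and a fit of the compared groups alone called 13, 8 higher and 5 lower. The 2 higher with A alone were loc19938 and loc22854. Of the 33 falling sequences 11 were lower after colchicine than in those hydroxyurea libraries (14% of all sequences were) and 3 were higher (10.8%). The days of sampling and of starvation differed between the groups, which cannot be told apart from the treatment.

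Heat shock library B, which the choice left out, held more of the falling sequences than the other heat shock libraries. The falling sequences were at a median of 1.44% of the day 11 controls in A, 11.3% in B, 2.72% in C and 1.88% in D, and B was the highest library in 24 of 28 loci. The locus sums were at medians of 93.4%, 102%, 106% and 105%. For example seq48742_loc17451_tr0252656 was at 0.223, 11.8, 1.97 and 0.505 CPM in A to D. In B it was about as low as on day 4 of hydroxyurea and well below the day 11 controls, at 95.4, 84.3, 89.7 and 107 CPM. Members were chosen for low values in A, C and D with B left out, so a higher B is in part built into the choice, and these 4 libraries are described without a test.

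Some loci differed between libraries of the same group, untreated ones included. At loc00471 the falling sequence seq00711_loc00471_tr0481596 was at 1.18, 16.0 and 13.7 CPM in the day 5 controls while its partner was at 14.3, 0 and 0 CPM, and the sum was at 15.6, 16.0 and 13.8 CPM. Control A thus held mostly the partner and controls B and C only the falling sequence and others. The same happened after treatment: on day 4 of hydroxyurea the falling sequence was at 3.47, 11.3 and 1.21 CPM and the partner at 9.48, 0.136 and 10.8 CPM, with library B opposite to A and C. After colchicine the falling sequence was at 2.66, 4.36 and 17.1 CPM. Against the same-day controls it was called on day 5 alone of days 4, 5 and 7.

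At loc17167 the falling sequence seq47770_loc17167_tr0555741 had counts in the A library of control days 4, 7 and 11 and 0 in their other libraries, with 16.2, 0 and 0 CPM on day 7 and 23.1, 0, 0 and 0 CPM on day 11. On day 4 of hydroxyurea it was at 27.3, 0 and 0.798 CPM, again highest in A. Its fall on day 11 therefore rests on 1 of 4 control libraries. At loc25678 the partner was at 19.7, 18.3 and 0 CPM in the day 7 controls and 17.5, 0 and 18.7 CPM on day 7 of hydroxyurea, at 0 in 1 library of each group, while the falling sequence itself fell on all 3 days, from 5.72, 6.08 and 5.93 CPM to 1.02, 1.33 and 1.20 CPM on day 7. At loc03417 the falling sequence was at 6.35, 3.81 and 2.67 CPM on day 4 of hydroxyurea against 3.08, 0 and 1.72 CPM, and the drop of its share was -8.97 percentage points, a gain, and the lowest drop of the 28 loci.

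In 5 of 28 loci, those 4 and loc20287, the falling sequence or the partner had 0 counts in at least 1 of the 9 controls while the locus sum did not vary that much: its highest control was at most 1.55 times its lowest in any of the 28 loci. How reads shared by sequences of a locus were divided is not given in the sources used here, and its part in these values was not tested. The same holds for the other loci, since a single sequence of a locus with several is uncertain. Falling sequences not called on any of days 4, 5 and 7 belonged to loc03417, loc11650, loc16636, loc17167 and loc19723.

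**Figure D4:**
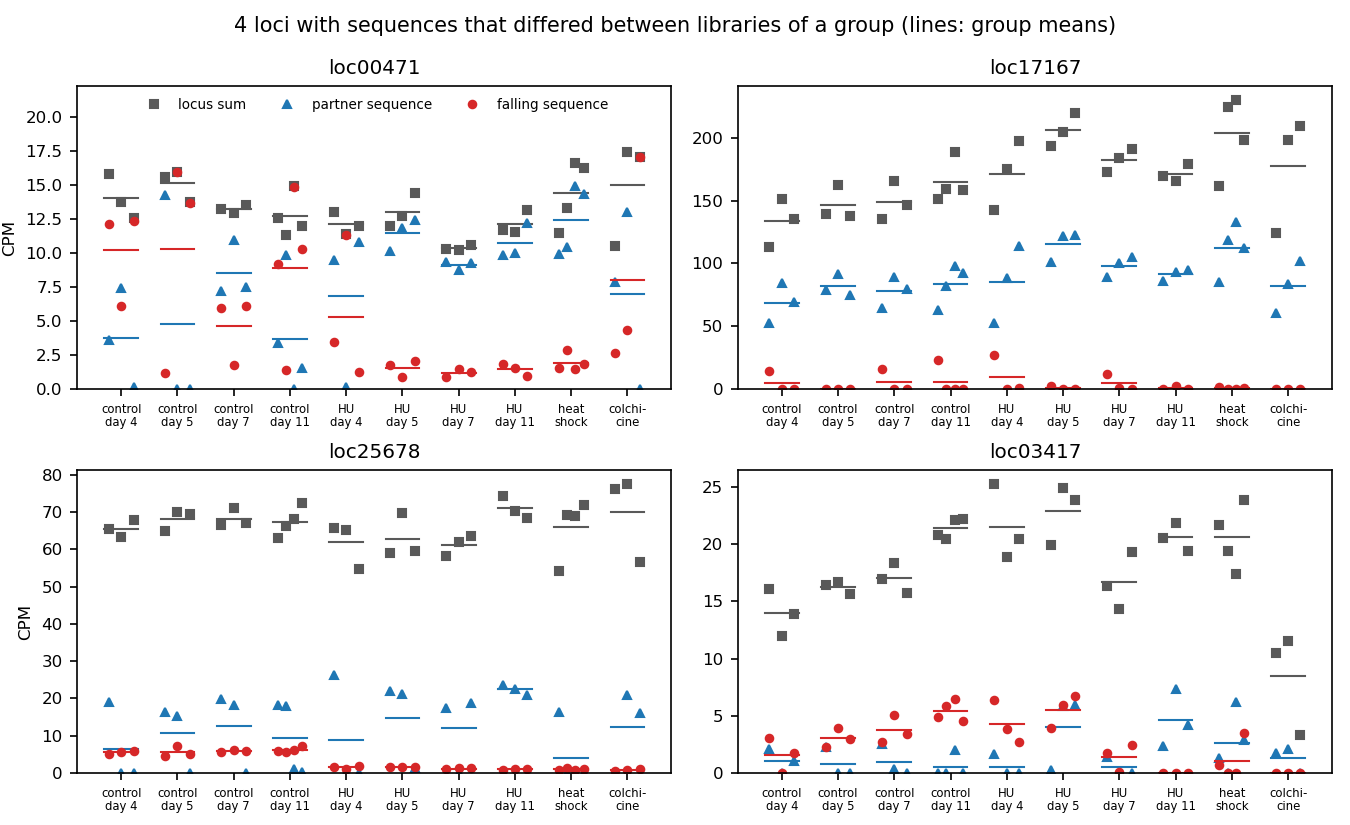
CPM per library in 10 groups for the falling sequence, the partner and the locus sum of 4 loci, with group means as lines. At loc00471 the falling sequence ranged from 1.18 to 16.0 CPM within the day 5 controls with sums of 13.8 to 16.0 CPM, and at loc17167 it was above 0 only in library A among the controls.

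Falling sequences of loci whose sum fell too are given side by side. Of 780 such sequences with the same limits, 66.7% fell on day 4, 84.1% on day 5, 95% on day 7 and 97.7% after colchicine, against 72.7%, 75.8%, 81.8% and 93.9% of the 33 members. They were at a median of 18.5%, 10.6%, 1.51% and 1.41% of the control, against 13.7%, 8.09%, 3.49% and 0.759% for the 33 members. Of the 237 falling sequences that were alone at their locus in the normalized table, 83.1%, 90.7%, 98.3% and 98.3% fell. These differences were not tested. By the code in the identifier, 57.6% of the 33 falling sequences were of the tr kind, against 56.4% of the normalized table and 48% of all 1067 falling sequences.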

How the data were processed

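The deposited count table gives whole-number counts for 79774 sequences, and the deposited normalized signal for 31594 of them is the count times 1 constant per library (0.669 to 2.80), by a test on the files. Per the submitters' processing notes, cutadapt 1.11, Salmon 0.7.2 and DESeq2 were used, with no role given, so the deposited counts may be rounded estimates. The signal served for the choice of members, the partner and the group means of day 11.

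For the tests edgeR 4.0.16 (R 4.3.3) was run on the deposited counts: robust quasi-likelihood F-test, TMM, filterByExpr with a minimum of 10 counts, all 32 libraries, 1 mean per group, 22 residual degrees of freedom. Of the sequences 38606, of the locus sums 17107 and of the loci for usage (diffSpliceDGE) 8658 were tested. Alternatives were median-of-ratios size factors, no filter, DESeq2 1.42.0, limma 3.58.1 (voom, diffSplice), the compared groups alone, a replicate block and leaving out each library. Colchicine was also compared with the day 11 controls, and fitted with library A alone. The fit was also run on simulated counts, with smaller changes than falls to 0 and with the libraries of a group drawn independently. That run does not cover falls to 0 or sequences that differ between libraries of a group. Named are the 12 loci with the highest falling sequence in the controls of days 4, 5 and 7, the largest and smallest share drop, and exceptions to counts; other names, such as loc22854, were chosen after their values were seen. The members, lists and tests were chosen with earlier results of these data known. A count of 0 allows up to 3 counts, for counting error only.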

Additional observations from a re-analysis of the deposited data

Results flagged for a closer look

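For the 12 named loci, 12 values lay apart from the other 3 libraries of their group by most of the group's range. These are descriptions: the heat shock and day 11 control libraries chose the members, with heat shock B left out, so that no chance level applies. In 7 cases heat shock B was the highest for the summed falling sequences, which the choice of loci low in A, C and D favours: 15.5 CPM at loc17451, 4.66 at loc17330, 2.47 at loc23402, 2.10 at loc24875, 3.51 at loc07822, 1.61 at loc23941 and 1.40 at loc24473. Another heat shock library was far from the rest for the partner of loc17451 (A, 199.7 CPM), for the partner of loc07822 (C, 159 CPM) and for the falling sequence of loc20997 (C, 0.0757 CPM, the others at 0). In the day 11 controls the summed falling sequences were high in D at loc17330 (60.1 CPM) and low in C at loc23684 (8.90 CPM).

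The effect of hydroxyurea on day 7 minus that on day 4 was called by edgeR for 4 falling sequences. The fitted log2 differences were -11.46 for seq48742_loc17451_tr0252656, -6.92 for seq70245_loc23402_vl0032049, -6.29 for seq18156_loc07822_vl0091441 and -7.67 for seq48256_loc17330_tr0149636. They rest on libraries at or near 0 counts on day 7 and are no bounds.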

How the results depend on the processing

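Counts of falling sequences called lower and of loci called for usage stayed within 1.5 times the reported count under all alternatives run, in all 4 comparisons. Partners called higher on day 4 were 3, against 7 by DESeq2, 6 with the replicate block and 7 with the compared groups only, and on day 5 4, against 7, 7 and 9. With 1 library left out, partners called higher were 2 to 4 on day 4, 3 to 4 on day 5 and 6 to 8 on day 7. Sums called were 3, 2 and 2 on days 4, 5 and 7, against 5, 4 and 5 with the block. DESeq2 gave 5 on day 4 and 4 on day 5, the compared groups only 7 on day 5 and 11 on day 7, and no filter 1 on day 7. Leaving out 1 library gave 1 to 4 on day 4, 1 to 2 on day 5 and 0 to 1 on day 7. With colchicine A alone, chosen after seeing the data, 12 sums were called in place of 20, and against hydroxyurea 8 in place of 20 (13 with the compared groups only). The falling sequences with different effects on days 7 and 4 were 4, and 11 by DESeq2 and with the compared groups only. With A alone 8 of the 28 colchicine sums changed sign. That of loc14078 was called in both fits, in opposite directions (0.27 and -0.36), loc22201 (-0.345) and loc00471 (-0.42) were called lower, and loc23684 (-0.0853) lost its call. The cause was not tested, except that A alone and leave-one-out fits hold fewer libraries. Shares called over all sequences or loci are not given for these alternatives.

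Same-letter deviations correlated at 0.0729 to 0.332 on day 4, 0.0859 to 0.159 on day 5 and 0.0762 to 0.313 on day 7. For colchicine they correlated at -0.0215 to 0.0105. The limit was 0.1 for every pair and was not met, so the main fit did not pair libraries by letter. Whether letters mark related libraries was not settled by this. On days 4 and 7 hydroxyurea A correlated at 0.332 and 0.313 with control A and negatively with controls B and C. For hydroxyurea B on those days the value was higher with control C than with control B. On day 5 every same-letter value was positive and every different-letter value negative, from -0.0973 to -0.00127. The replicate block above is the fit that uses the letters. DESeq2 gave 1 falling sequence no adjusted p. With colchicine B and C at 15.2 and 13.1 M counts, 1 count there weighs more than elsewhere, and low values after colchicine are near the floor.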
